A study of Mus musculus with 20 samples.

Results

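The genes described here are the mouse zinc finger protein genes named Zfp and a number. The rule kept every row with such a name whose mean over all 20 samples was at least 1 CPM (counts scaled to a common library total, the count of a gene as a share of its sample's total), and it found 246 members among the 24391 genes of the count tables. In all, 337 rows carried such a name, so 91 fell under the threshold, and 12 of those had no count in any sample. The members just inside were Zfp773 at 1.05 CPM, Zfp949 at 1.18 and Zfp658 at 1.43, and the genes just outside were Zfp937 at 0.980, Zfp14 at 0.907 and Zfp455 at 0.871. The members were chosen by their overall level in these same samples, so that level is given as a description, and no comparison between groups entered the rule.

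RNA was sequenced from E2-10HA, a mouse T cell hybridoma (a T cell fused to a tumour line), in 6 groups. The CRISPR control carried the empty lentiCRISPRv2 vector (n = 6), and the H2A.Z guide samples carried that vector with guides against H2afv and H2afz (n = 6), the genes of the histone variant H2A.Z; both were selected with puromycin. The BioNICD groups carried the biotin ligase BirA from pLXSP and, from a pMY vector with IRES-GFP, the intracellular domain of Notch (NICD) with a tag for biotinylation. In the first the domain was wild type (n = 2) and in the other a form labelled DEP (n = 2), and both were selected with histidinol and sorted. The NICD-ER groups carried Flag-tagged NICD fused to the estrogen receptor's ligand-binding part in pMIGRI with IRES-GFP, were sorted, and received ethanol (n = 2) or the ligand 4-hydroxytamoxifen, 4-OHT (n = 2), for 24 hours. The titles of all guide samples carry 1 line number, so a difference between lines and an effect of the guides cannot be told apart. The BioNICD forms likewise sat in different cell populations, so a difference between populations and an effect of the form cannot be told apart. No cells without NICD-ER received 4-OHT, so an effect of the ligand itself and an effect of active NICD cannot be told apart. Nothing in the labels states that replicates came from separate cultures, and the p-values therefore reflect the spread among these particular samples only, part of which may be technical.

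Most numbered Zfp genes encode C2H2 zinc finger proteins, in which a pair of cysteines and a pair of histidines hold a zinc ion and a row of such fingers reads DNA. The largest class also has a KRAB domain, which recruits the corepressor TRIM28 (KAP1) and through it the histone methyltransferase SETDB1, and many of these proteins silence retroelements or imprinted loci. KRAB zinc finger genes multiplied by tandem duplication and lie in clusters. The name is not a protein family, and some members are RNA-binding or ribosome-associated proteins with other kinds of finger.

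The members lay on every autosome and on X, with 66 on chromosome 7, 28 on chromosome 17, 22 on chromosome 13 and 19 on chromosome 8. A coding sequence was found for 245 members, and 105 of them matched a pattern for the KRAB A box, while 140 did not. A member without a match may still hold a diverged KRAB box. The median number of C2H2 finger matches was 10 (range 0 to 36), with a median of 11 in members with the KRAB match and 8 in those without. No C2H2 finger was matched in 5 members, among them Zfp36 (tristetraprolin), which has CCCH fingers and binds AU-rich elements of mRNAs.

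The promoters of 6 members are shown because their genes carry the main results below: Zfp53, Zfp54 and Zfp945 rose in both NICD comparisons (Zfp945 with NICD-ER not in a model over all 20 samples, adjusted p = 0.0638), Zfp677 lies among them on chromosome 17 and was almost absent with the guides, Zfp607 rose most with NICD-ER, and Zfp287 rose with the guides and with wild-type BioNICD. Zfp51 also rose in both NICD comparisons (log2 fold changes 0.61 and 0.68) but had no RefSeq promoter to show. Each sequence holds the 250 bases before the RefSeq start (build GRCm38.p6), in the direction of transcription. Capitals mark TGGGAA, the core bound by RBPJ, the DNA-binding partner of NICD, and CCGGAA, a core of ETS-family sites, on either strand (as TTCCCA and TTCCGG on the reverse strand). The marked matches do not overlap one another.
Zfp53, chr17:21488738-21488987, plus strand: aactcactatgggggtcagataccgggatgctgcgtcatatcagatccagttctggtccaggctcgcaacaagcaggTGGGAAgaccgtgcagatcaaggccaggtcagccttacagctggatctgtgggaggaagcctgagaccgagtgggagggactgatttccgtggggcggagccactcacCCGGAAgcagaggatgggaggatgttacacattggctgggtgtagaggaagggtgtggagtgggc
Zfp54, chr17:21422977-21423226, plus strand: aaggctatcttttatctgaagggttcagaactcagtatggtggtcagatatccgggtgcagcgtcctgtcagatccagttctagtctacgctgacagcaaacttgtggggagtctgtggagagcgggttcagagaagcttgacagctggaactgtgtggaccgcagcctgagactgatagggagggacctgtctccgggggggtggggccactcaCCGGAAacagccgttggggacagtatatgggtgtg
Zfp945, chr17:22867135-22867384, minus strand: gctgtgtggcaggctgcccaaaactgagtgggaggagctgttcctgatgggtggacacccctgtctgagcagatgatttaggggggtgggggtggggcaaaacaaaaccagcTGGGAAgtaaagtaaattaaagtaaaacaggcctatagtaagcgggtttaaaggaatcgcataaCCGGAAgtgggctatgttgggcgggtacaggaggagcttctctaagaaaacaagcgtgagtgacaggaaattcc
Zfp677, chr17:21383498-21383747, plus strand: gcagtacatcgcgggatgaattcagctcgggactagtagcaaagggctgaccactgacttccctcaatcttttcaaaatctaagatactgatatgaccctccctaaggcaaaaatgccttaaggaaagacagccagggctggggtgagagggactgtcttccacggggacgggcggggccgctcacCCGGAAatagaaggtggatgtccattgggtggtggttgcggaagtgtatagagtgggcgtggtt
Zfp607 (Zfp607a in RefSeq), chr7:27860335-27860584, plus strand: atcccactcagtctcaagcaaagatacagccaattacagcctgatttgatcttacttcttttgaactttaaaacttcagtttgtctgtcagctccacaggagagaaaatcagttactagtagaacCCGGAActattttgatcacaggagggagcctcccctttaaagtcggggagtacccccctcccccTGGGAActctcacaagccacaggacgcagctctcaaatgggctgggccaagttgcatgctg
Zfp287, chr11:62731897-62732146, minus strand: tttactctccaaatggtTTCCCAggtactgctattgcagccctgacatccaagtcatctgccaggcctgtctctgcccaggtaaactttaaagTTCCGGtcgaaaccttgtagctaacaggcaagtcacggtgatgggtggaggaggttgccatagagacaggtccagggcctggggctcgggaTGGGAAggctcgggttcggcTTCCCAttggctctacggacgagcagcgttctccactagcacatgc

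A RefSeq promoter was matched for 205 members. The shares and ratios below cover 300 bases, 250 before the start and 50 after it, while the sequences above show only the 250 before it. CCGGAA was present in 32.2% of them, against 24.85% of 7941 promoters of the other genes with a mean of at least 1 CPM and 12.2% of all 27025 promoters. TGGGAA was present in 31.7% of member promoters, 19.6% of those of the other expressed genes and 21.5% of all. All 6 promoters above held CCGGAA, and Zfp53, Zfp945, Zfp607 and Zfp287 held TGGGAA, the last in 3 copies. The longer GTGGGAA was in 8.78% of member promoters and 5.18% of the other expressed genes', GGGCGG (an Sp1-type GC box) in 42.4% and 61.2%, and CACGTG (an E-box) in 6.34% and 8.69%, on either strand. The median ratio of observed to expected CpG was 0.622 in member promoters, between 0.758 in the other expressed genes and 0.378 over all. These letters are matches and not measured binding sites. Among the members higher with NICD-ER, 36.1% of 36 promoters held TGGGAA, and among those lower 26.7% of 15 did; with BioNICD the shares were 34.5% of 58 and 27.8% of 54. The H2A.Z guides, a comparison without NICD, had a like split of 38.4% of 73 and 28.6% of 42.

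Per length, in length-scaled transcript units that sum to the same total in each sample (TPM, mean over all samples), the highest members were Zfp207 at 122.5, Zfp622 at 101.5, Zfp91 at 86.9, Zfp740 at 84.2, Zfp706 at 71.7, Zfp106 at 63.3, Zfp511 at 62.1 and Zfp110 at 60.4. Zfp207 (BuGZ) serves the mitotic spindle, Zfp622 takes part in maturation of the large ribosomal subunit, Zfp91 is a ubiquitin ligase and Zfp106 binds RNA. None of these 8 matched the KRAB pattern. The median member stood at 9.28 TPM, with 6.21 in members with the KRAB match and 12.3 in those without.

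Levels across groups are given below in CPM scaled between samples by TMM factors. In the sum over the 246 members, the CRISPR controls held 6965 to 7721 CPM, the guide samples 7288 to 7846, BioNICD DEP 8344 and 8425, wild-type BioNICD 8069 and 7928, NICD-ER with ethanol 7685 and 7812, and with 4-OHT 7897 and 7953. BioNICD DEP was thus the highest group in this sum and did not overlap with the others. A test of any difference between the 6 groups called 229 members (93.1%), with 90.9% of all genes called by the same test, so the share of members is close to the background. The highest group mean was a median of 1.58 times the lowest (0.1 CPM added to both), and 75% of members stayed under 1.87 times. In 234 members every group mean was at least 1 CPM. The other 12 dropped under 1 CPM in some group, 8 of them in the H2A.Z guide samples, and Zfp773 did so in both BioNICD groups. Such counts were not made over all genes.

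Library totals were 10704131 to 18344298 counts in the CRISPR samples and from 16371601 to 48238324 in the NICD samples. The targeted H2afz stood at 24.68 to 31.02 CPM in the controls and 4.57 to 5.70 with the guides, and H2afv at 116.5 to 149.3 and 27.4 to 56.9. Of 12 T cell markers, 10 or 11 had a group mean above 1 CPM in every group. CRISPR replicates 1 and 2 of each group form submission set 1 and replicates 3 to 6 set 2, read from a field of the labels, and the set was a covariate of the guide comparison. Replicate 1 of the controls and of the guides stood apart by 5 fibroblast markers, which summed to 35.0 and 42.5 CPM there and to at most 0.285 in every other sample.

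With the H2A.Z guides, 88 members rose and 51 fell, and the changes differed widely in size. Among all 10662 genes tested 31.8% were higher and 32.7% lower, and among members 35.8% were higher and 20.7% lower, so the members that changed were more often higher while genes at large were divided almost evenly. The median log2 fold change was 0.08 over members and -0.01 over all genes. At least 2-fold changes were called in 20 members, 10 in each direction (8.13%, against 9.26% of all genes). Without the 2 libraries that hold fibroblast markers, 106 members were higher and 54 lower, with 3677 higher and 3683 lower among all genes. In set 1 alone, with 2 samples a group, 32 members were higher and 22 lower, and in set 2 alone 106 and 58. Among all genes, 1563 were higher and 1385 lower in set 1 alone, and 3842 and 3914 in set 2 alone.

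A few members were near 0 in every guide sample. Zfp677, a KRAB zinc finger gene (mm9 chromosome 17, 21520712 to 21536229), was lowest, with 284 counts over the 6 controls and 1 count over the 6 guide samples. Its level in the controls was 2.64 at the lowest, 3.62 at the median and 4.27 CPM at the highest, and 5 guide samples had no count. The ratio of the pooled levels was 325 (95% counting interval 57.8 to 12870, exact binomial; such intervals cover counting error only). In the NICD groups Zfp677 stood between 2.90 and 7.19 CPM. Its log2 fold change was -7.47 ± 0.35, where an SE at so few counts can be too small (SE; adjusted p = 2.84e-11, edgeR's quasi-likelihood test with Benjamini-Hochberg adjustment, as for every adjusted p below).

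Zfp532, a partner of Zfp592 and Zfp687 in a chromatin complex that contains ZMYND8 (mm9 chromosome 18, 65739884 to 65849090), was 52.3 and 52.8 CPM in control replicates 1 and 2, and 17.5 to 19.6 in the other 4 controls. The guide samples held 0.403 to 0.720 CPM, with 5 to 11 counts each. The log2 fold change was -5.87 ± 0.17 (SE; adjusted p = 1.11e-13). Its fall was larger in set 1 than in set 2 (difference of the log2 effects 1.57 ± 0.34, adjusted p = 0.00746). The mean of the controls was 52.5 CPM in set 1 and 18.8 in set 2, and that of the guide samples 0.475 and 0.507. The partners Zfp592 and Zfp687 were not called (log2 fold changes 0.08 and 0.04).

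Zfp605, a KRAB gene on chromosome 5 (mm9 110539111 to 110558813), held 4.71 to 6.82 CPM in the controls and 0 to 0.325 with the guides, a pooled ratio of 26.9 (counting interval 17.2 to 44.5). Zfp579 on chromosome 7 (mm9 4944454 to 4947703) held 1.65 to 3.01 and 0 to 0.278 CPM, a pooled ratio of 14.8 (8.58 to 27.6). Zfp783 on chromosome 6 (mm9 47893174 to 47904548) held 3.86 to 7.63 and 0.5 to 0.724 CPM, a pooled ratio of 10.3 (7.79 to 13.95). In all 3 genes the groups did not overlap, which naming by size of change required. The 8 NICD samples were at 5.63 CPM or above for Zfp605 and Zfp783 and at 2.05 or above for Zfp579.

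**Figure D1:**
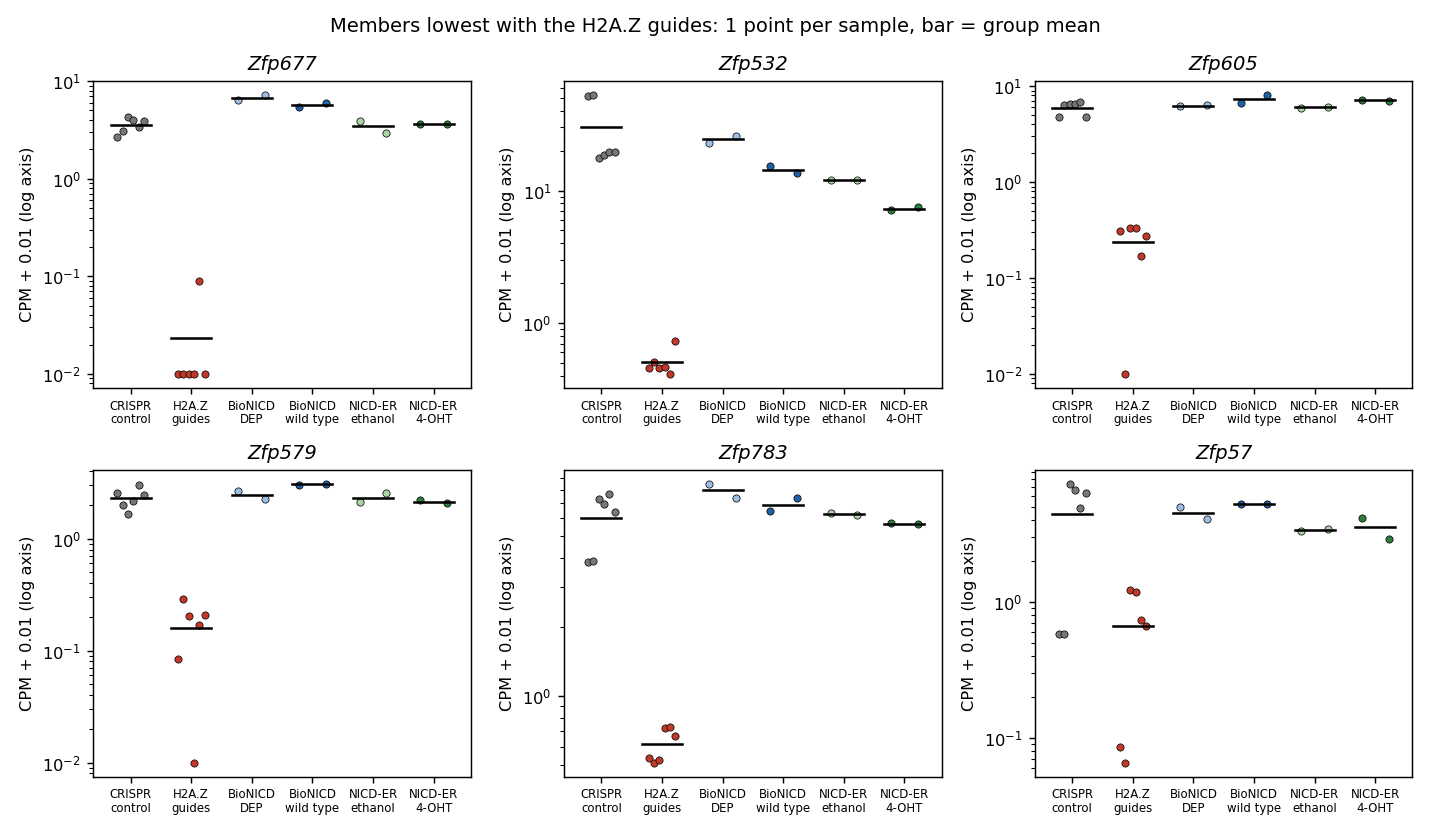
CPM (0.01 added, log axis) in each sample for 6 members that were low with the H2A.Z guides, 1 point per sample and a bar at the group mean, in the 6 groups along the horizontal axis. Points at 0.01 are samples with no count, and the controls of Zfp57, Zfp532 and Zfp783 split by submission set.

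Zfp57 binds methylated imprinting control regions and keeps their methylation (mm9 chromosome 17, 37138108 to 37147674). It stood at 0.566 and 0.570 CPM in control replicates 1 and 2 but at 4.91 to 7.37 in the other 4, and at 0.0749 and 0.0556 in guide replicates 1 and 2 but at 0.655 to 1.22 in the other 4. The pooled groups overlap, while within each set every guide sample lay under every control. The log2 fold change with the set as covariate was -2.73 ± 0.19 (adjusted p = 4.06e-09), and no difference between the sets was called (adjusted p = 0.831). In the NICD groups it stood at 2.90 to 5.25 CPM.

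Further members lower by at least 2-fold were Zfp949 (-2.27 ± 0.31), Zfp516 (-1.95 ± 0.08), Zfp882 (-1.41 ± 0.25) and Zfp637 (-1.03 ± 0.11). Zfp516, known as a regulator of brown fat genes, went from 22.5 to 32.1 CPM in the controls to 5.06 to 8.05 with the guides. The levels of these 4 genes did not overlap between the 6 controls and the 6 guide samples, a condition for naming members by size of change.

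Members that rose did so by less on the log2 scale. The threshold on the mean over all 20 samples keeps a gene low only with the guides more readily than one high only there. The part of the threshold in this difference was not tested. Zfp287 rose most (mm9 chromosome 11, 62524988 to 62542595). It had 0.211, 0.6253 and 1.13 CPM at the lowest, median and highest control and 2.15, 2.67 and 3.52 CPM with the guides, a log2 fold change of 2.19 ± 0.26 (adjusted p = 1.67e-06). Zfp771 followed with 1.32 ± 0.15, from a median of 6.56 CPM (3.51 to 8.86) to 15.7 (11.7 to 25.5). Zfp276 rose from a median of 12.2 CPM (11.1 to 13.6) to 27.9 (24.7 to 38.5), and Zfp831, whose controls were within 5.78 to 6.60 CPM, reached 13.0 to 16.1. Zfp703, a corepressor gene without a C2H2 finger match, rose from 2.34 (1.76 to 3.23) to 5.70 CPM (3.47 to 6.62). None of these groups overlapped, again a condition for naming by size of change. Zfp217, a subunit of CoREST-type corepressor complexes and a highly expressed member, rose by 0.71 ± 0.04, from 114 to 142 CPM to 190 to 240 CPM.

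The chromosomes 8 and 5, singled out after their values were seen, had the largest shifts of the other genes' median, and their members shifted the same way. On chromosome 8, 13 of 19 members rose and Zfp882 alone fell, with a median log2 fold change of 0.40; among the other 553 genes tested there, 446 rose and 30 fell, with a median of 0.52. On chromosome 5, no member rose and 10 of 14 fell, with a median of -0.39; among the other 668 genes tested, 122 rose and 412 fell, with a median of -0.33. Zfp276, Zfp703, Zfp963 and Zfp319 are among the chromosome 8 members, and Zfp605, Zfp932 and Zfp326 among those on chromosome 5. Off these chromosomes, 75 of 213 members were higher and 40 lower, with a median of 0.08. On chromosome 7, 29 of 66 members rose and 10 fell (median 0.10), while the other genes there had 177 higher and 259 lower of 737 (median -0.06). On chromosome 17, 11 of 28 members rose and 8 fell (median 0.12), and 231 of the other 545 genes rose and 126 fell (median 0.11). The part of gene dosage in these shifts was not tested.

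**Figure D2:**
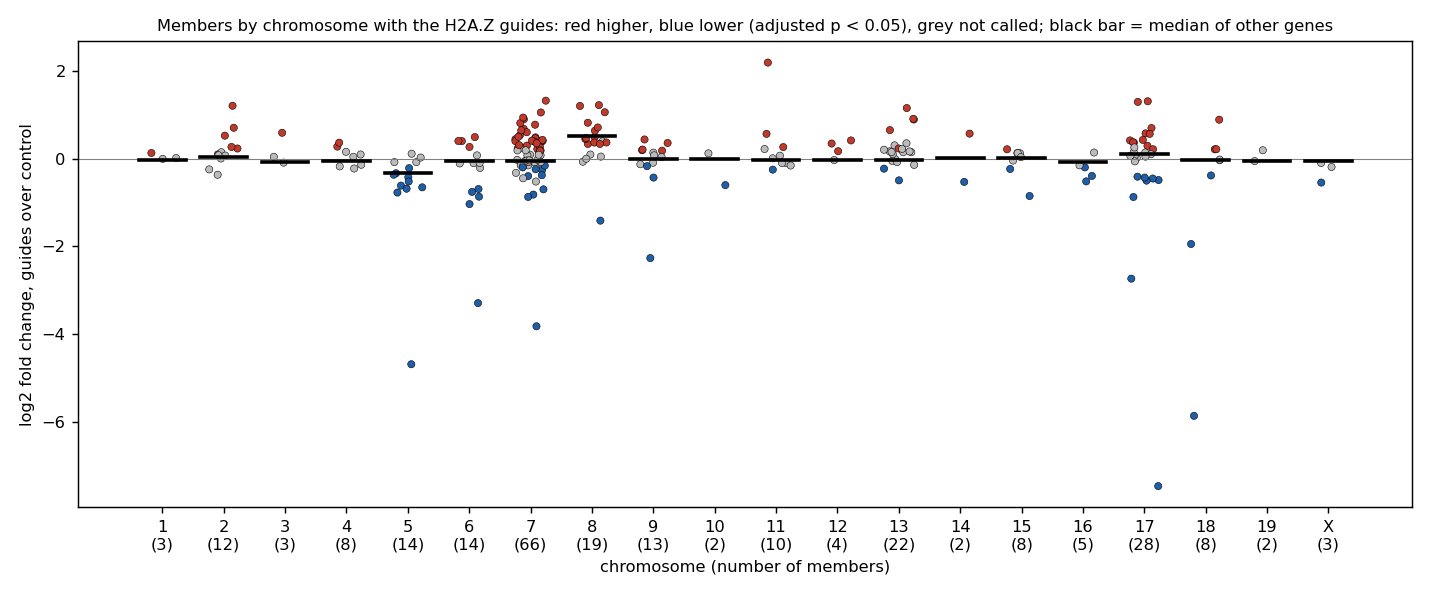
Log2 fold change of each member with the H2A.Z guides over the control (vertical axis) by chromosome (horizontal axis, members in brackets), with the median of all other genes tested on that chromosome as a black bar. Red members were higher and blue ones lower at adjusted p under 0.05; the bars of chromosomes 8 and 5 lie at 0.52 and -0.33.

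Of 31 genes listed for their known roles, 27 are members, and 7 of them rose, 6 fell and 14 were not called with the guides (median 0.04). Zfp568, a KRAB protein that represses a placental Igf2 transcript, rose from a median of 25.9 CPM (25.1 to 31.9) to 42.0 (39.1 to 44.6), by 0.60 ± 0.05 (adjusted p = 3.33e-08). Zfp598, the ubiquitin ligase that senses collided ribosomes, rose by 0.37 ± 0.07. Zfp932, which silences endogenous retroviruses, fell by 0.68 ± 0.14, and Zfp326, which links RNA polymerase II to splicing, fell by 0.33 ± 0.09. Zfp809, which silences retroviral DNA, was not called (0.08 ± 0.07), nor was Zfp143, a promoter-binding factor (-0.09 ± 0.04).

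Members with the KRAB match had 37 higher and 25 lower of 105 (median log2 fold change 0.09), and those without had 51 higher and 25 lower of 140 (median 0.08). Of the KRAB corepressor machinery, 29 of 30 listed genes were tested, with 12 higher and 7 lower (median 0.04). Trim28 itself was not called (0.00 ± 0.04), Setdb1 rose by 0.16 ± 0.04, and Uhrf1, which recruits the maintenance DNA methyltransferase, fell by 0.28 ± 0.04. Zfp36 rose by 0.23 ± 0.08 (adjusted p = 0.0158), a call lost in set 1 alone, with no set covariate and without the 3 samples highest in ribosomal precursor reads. Of its close relatives, Zfp36l2 rose by 1.06 ± 0.08 and Zfp36l1 fell by 0.45 ± 0.10; of the AU-rich decay list as a whole, 6 of 18 rose and 7 fell.

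The effect of the guides differed between the submission sets in 15 members (6.1%), against 15.7% of all genes. Without guide replicate 2 this count was 87, with 37.9% of all genes called, and without guide replicate 1 it was 29, with 21.6%. Without control replicate 1 or 2 it was 9 each, with 7.93% and 9.65% of all genes called. Without the 3 samples highest in ribosomal precursor reads it was 3, with 4.15% of all genes called.

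With NICD-ER, 4-OHT raised 43 members and lowered 22 of 246, and the changes were small. Among all 12499 genes 19% were higher and 17.2% lower, and among members 17.5% and 8.94%. A change of at least 2-fold was called in 1 member (0.407%, against 3.51% of all genes). Members had to reach a mean of 1 CPM over all 20 samples, which was not asked of all genes tested. The part of this threshold in the difference was not tested. Of the 65 called members, 61 changed by less than 1.5-fold. Among all genes, 2376 were called higher and 2145 lower, and 3639 of these changed by less than 1.5-fold. The median log2 fold change was 0.03 over members and 0.00 over all genes. The excess of higher over lower members depended on the fit. A model over all 20 samples gave 10 higher and 16 lower, with 1137 higher and 1081 lower among all genes. Upper quartile scaling gave 29 and 30 members, with 1970 and 2586 among all genes. DESeq2 called 1773 of all genes higher and 1690 lower. The higher members numbered 26 with DESeq2 and 27, 23 and 25 without 4-OHT replicate 1, 4-OHT replicate 2 and ethanol replicate 1, each of which leaves an arm with 1 sample that is assumed to vary like the others. The lower members numbered 14 without either 4-OHT replicate.

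The single member past 2-fold was Zfp607 (mm9 chromosome 7, 28645604 to 28665844), a gene with 18 finger matches. Its samples were at 12.3 and 11 CPM with ethanol and 23.1 and 23.8 CPM with 4-OHT, a log2 fold change of 1.02 ± 0.08 (adjusted p = 6.95e-10). Zfp53 (mm9 chromosome 17, 21625952 to 21647441), a KRAB gene, was at 21.8 and 22.4 CPM with ethanol and 44.5 and 42.8 CPM with 4-OHT. Its log2 fold change was 0.99 ± 0.06 (adjusted p = 2.72e-12). In both genes the distance between the groups was many times the spread within a group. Over all genes, however, the ethanol replicates differed more from each other than any other pair of NICD replicates. Next came the neighbours of Zfp53. Zfp51 went from 26.7 and 28.1 to 41.3 and 42.1 CPM (0.61 ± 0.06), and Zfp54 from 6.57 and 7.07 to 9.24 and 10.9 CPM (0.58 ± 0.11). Zfp60 on chromosome 7 rose by 0.47 ± 0.08.

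The largest falls were smaller than 2-fold. Zfp532 went from 11.9 and 12.1 CPM to 7.17 and 7.46 (-0.71 ± 0.10, adjusted p = 3.19e-06). Zfp623 went from 5.03 and 6.33 CPM to 3.84 and 3.96 (-0.54 ± 0.14), a call lost without ethanol replicate 2. Zfp395 fell by 0.47 ± 0.10, from 22.1 and 16.7 CPM to 15.0 and 12.9. Zfp217 fell by 0.31 ± 0.04, from 162 and 168 CPM to 130 and 135, and Zfp91 fell by 0.22 ± 0.04. In each of these genes both 4-OHT samples were under both ethanol samples, and naming by size of change required such a gap.

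With wild-type BioNICD against the DEP form, 71 members were higher and 65 lower. Upper quartile scaling turned the balance, to 63 higher and 78 lower, with 3705 higher and 4607 lower among all genes. The background was 32.0% higher and 33.6% lower of 12499 genes, with 28.9% and 26.4% among members. At least 2-fold differences were called in 9 members (3.66%), against 14.6% of all genes: 8 members were higher and 1 lower. The 90th percentile of the absolute log2 fold change was 0.67 over members and 1.54 over all genes, so large differences were rarer among members. A gene high only in the wild-type samples reaches the members' threshold, a mean over all 20 samples, less readily than the filter for genes tested. The part of this threshold in the difference was not tested. Wild-type samples also held transcripts listed as markers of other cell types: Blk at 241 and 239 CPM, Nkg7 at 93.2 and 96.8, and Itgam at 62.8 and 61.2, each at most 0.178 CPM in the DEP samples. Ms4a1 of the B cell list and Eomes of the NK list were at 0 in the wild-type samples. The part of these genes in the members' result was not tested.

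**Figure D3:**
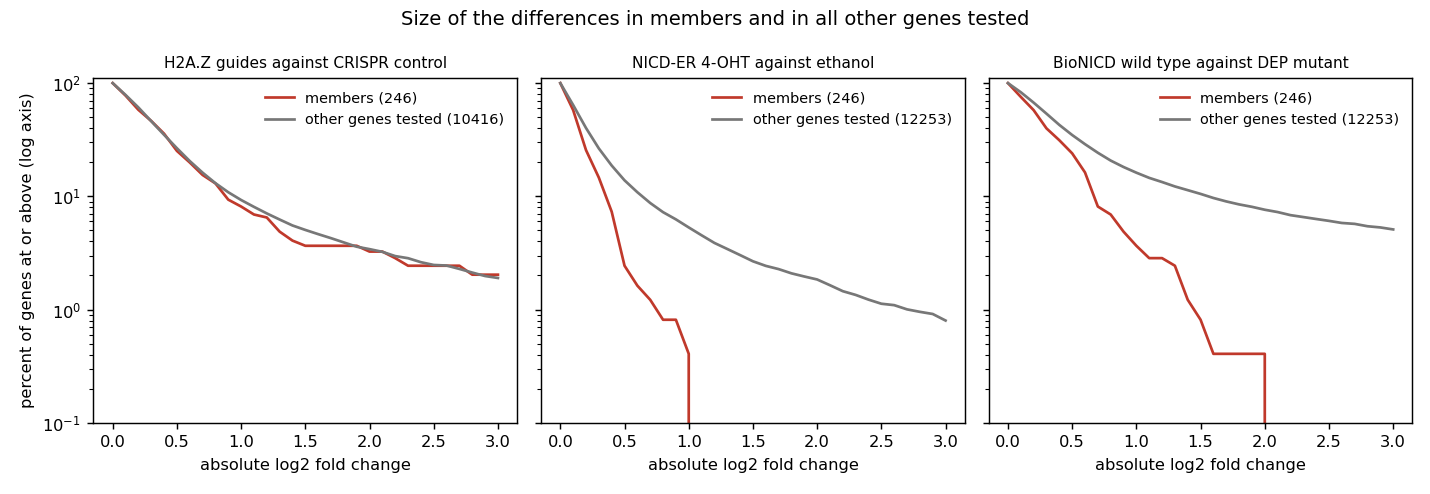
Percent of genes (log axis) whose absolute log2 fold change is at or above the value on the horizontal axis, for members (red) and all other genes tested (grey), in the 3 comparisons. In both NICD comparisons the red line drops under the grey one; with BioNICD the 90th percentiles are 0.67 for members and 1.54 for all genes.

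Zfp287 had the largest difference, with 0.950 and 1.13 CPM in the DEP samples and 4.29 and 4.46 CPM in the wild type (log2 fold change 2.04 ± 0.22, adjusted p = 2.18e-08). Zfp53 went from 22.3 and 22 CPM to 64.3 and 68.1 (1.57 ± 0.06, adjusted p = 4.11e-16), the highest level of this gene in any group. Zfp945 (mm9 chromosome 17, 22983664 to 23004101) went from 13.8 and 15.9 CPM to 40.2 and 38.1 (1.39 ± 0.09), and Zfp54 from 4.21 and 4.61 to 11 and 10.3 (1.26 ± 0.13). Zfp775 went from 7.36 and 8.09 CPM to 19 and 20.6 (1.33 ± 0.10). The sample levels did not overlap in any of these genes, as naming by size of change required. Zfp458 (1.41 ± 0.33), Zfp90 (1.35 ± 0.28) and Zfp882 (1.04 ± 0.25) completed the group at 2-fold or more, all at under 3 CPM, and the call for Zfp458 was lost without wild-type replicate 1.

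**Figure D4:**
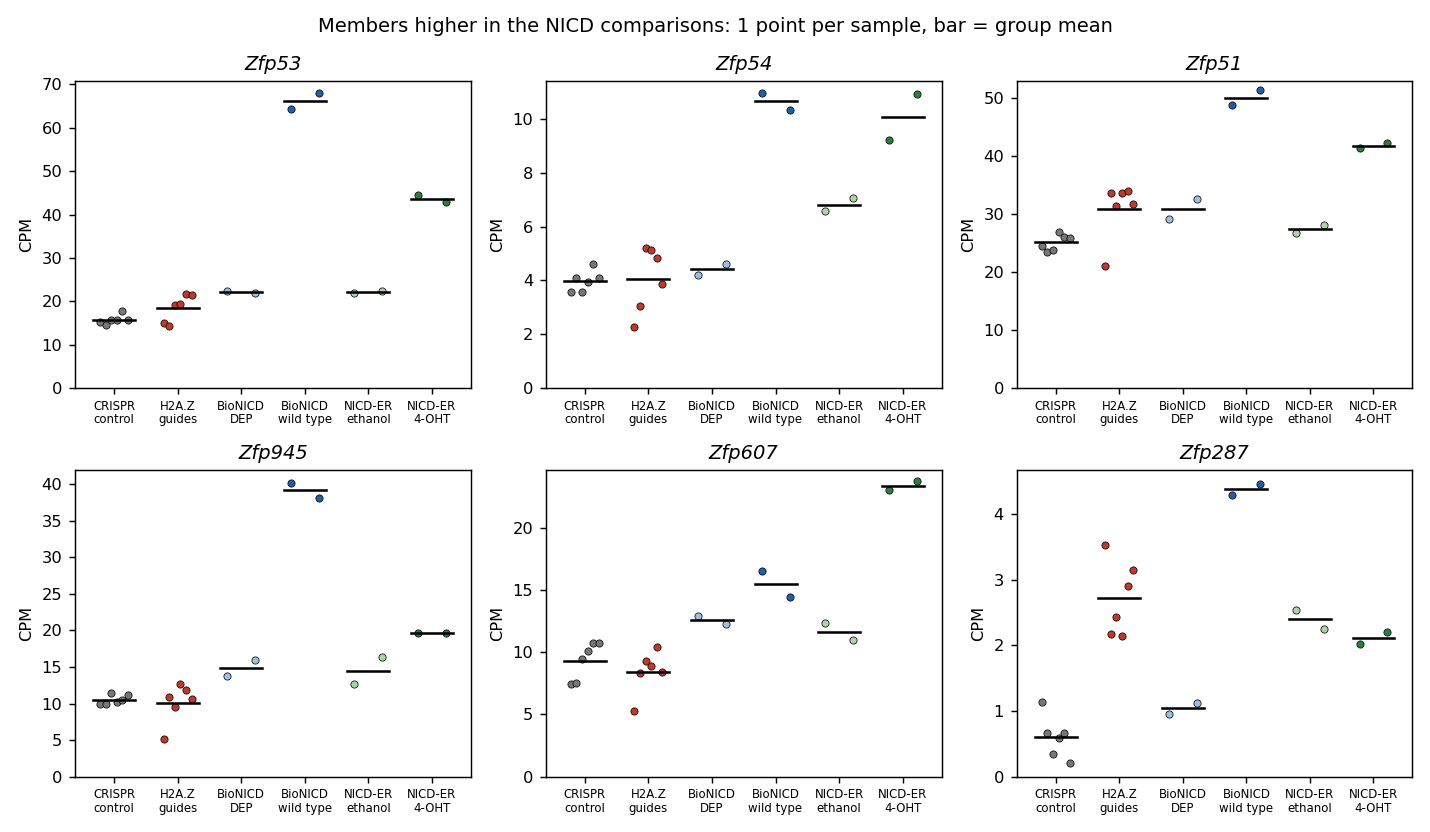
CPM (linear axis from 0) in each sample for 6 members higher in a NICD comparison, 1 point per sample and a bar at the group mean, in the 6 groups along the horizontal axis. Zfp53 was at 21.8 to 22.4 CPM in the DEP and ethanol samples, 42.8 and 44.5 with 4-OHT and 64.3 and 68.1 in the wild type.

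Zfp367, a gene tied to the cell cycle, was the only member lower by at least 2-fold, at 69.4 and 67.3 CPM with DEP and 33.1 and 32.4 CPM in the wild type (-1.07 ± 0.06, adjusted p = 2.005e-13). Zfp449 (-0.90 ± 0.18) and Zfp382 (-0.88 ± 0.06), a KRAB gene, followed. Zfp532 was at 23.0 and 25.9 CPM with DEP and 15.3 and 13.6 in the wild type (-0.76 ± 0.09). Zfp346, which binds double-stranded RNA, fell by 0.69 ± 0.06, Zfp397 by 0.64 ± 0.04, Zfp369 by 0.63 ± 0.06 and Zfp598 by 0.62 ± 0.05. Zfp91 fell by 0.54 ± 0.04, from 244 and 252 CPM to 172 and 173.

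Of the 27 members with known roles, 4 rose and 14 fell in this comparison (median log2 fold change -0.18), and 4 rose and 5 fell with NICD-ER (median -0.01). Zfp106 rose with BioNICD by 0.66 ± 0.03, from 259 and 260 CPM to 419 and 404, and Zfp809 by 0.61 ± 0.07, from 26.8 and 26.5 to 40.5 and 41.5. Zfp36 rose by 0.20 ± 0.07, a call lost in the model over all 20 samples and without DEP replicate 2 or wild-type replicate 1. The KRAB corepressor list had 9 higher and 16 lower of 29 (median -0.15), with Trim28 lower by 0.34 ± 0.04, from 493 and 475 CPM to 387 and 380. In the NICD-ER comparison the same list had 12 higher and 2 lower (median 0.06), and Trim28 was not called (-0.03 ± 0.04).

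The members were also counted by the KRAB match in the NICD comparisons, with no test of a difference. With NICD-ER, 23 of 105 members with the match rose and 5 fell (median 0.10), and 20 of 140 without it rose and 17 fell (median 0.00). Of these 23, 9 lie in the chromosome 17 stretch described next; off it, 14 of 92 members with the match rose and 5 fell (median 0.05). With BioNICD, 32 with the match rose and 25 fell (median 0.07), and 39 without it rose and 40 fell (median -0.02). These counts are a description, and KRAB genes that lie side by side are not independent of one another.

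In a stretch of chromosome 17, 9 of 14 neighbouring members rose with NICD-ER, while 7 rose and 2 fell with BioNICD. The stretch from Zfp160 to Zfp213 (mm9 chromosome 17, 21145905 to 23701193) was chosen after its values were seen. It holds 14 members, and 13 of the 14 match the KRAB pattern, all but Zfp213. With NICD-ER 9 of the 14 rose and none fell (median 0.35), while the other 14 members on chromosome 17 had 3 higher and 1 lower (median 0.06). Those that rose were Zfp160, Zfp54, Zfp51, Zfp53, Zfp760, Zfp942, Zfp943, Zfp758 and Zfp945, with log2 fold changes from 0.17 to 0.99. In the model over all 20 samples only Zfp51, Zfp53 and Zfp54 of the 14 were called (median 0.34), and Zfp160, Zfp760, Zfp942, Zfp943, Zfp758 and Zfp945 were not; the other alternatives gave 7 to 9 higher and 0 lower. With BioNICD 7 rose (Zfp54, Zfp51, Zfp53, Zfp943, Zfp945, Zfp40 and Zfp213) and 2 fell (Zfp160 and Zfp52). Zfp760, Zfp942, Zfp944 and Zfp758, which lie between genes that rose, were not called with BioNICD. Among all genes 32.0% were higher and 33.6% lower in that comparison. Among the 23 other genes of the stretch 7 were tested with NICD-ER, of which 3 were higher and 0 lower.

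The members of the stretch did not move as a block. Zfp52 lies next to Zfp53, yet it was at 25 and 26.6 CPM with ethanol and 25.2 and 22.5 with 4-OHT (not called), and fell by 0.51 ± 0.09 with wild-type BioNICD. With the H2A.Z guides Zfp52 rose by 1.30 ± 0.14 and Zfp213 by 1.31 ± 0.17 (pooled over the sets, control and guide samples overlapped in both), while Zfp677 was near 0 and Zfp760 fell by 0.43 ± 0.11. Zfp677 was not called in either NICD comparison. Reads that near-identical neighbours share may have been divided or left out by the counting, so the values of single members are uncertain.

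**Figure D5:**
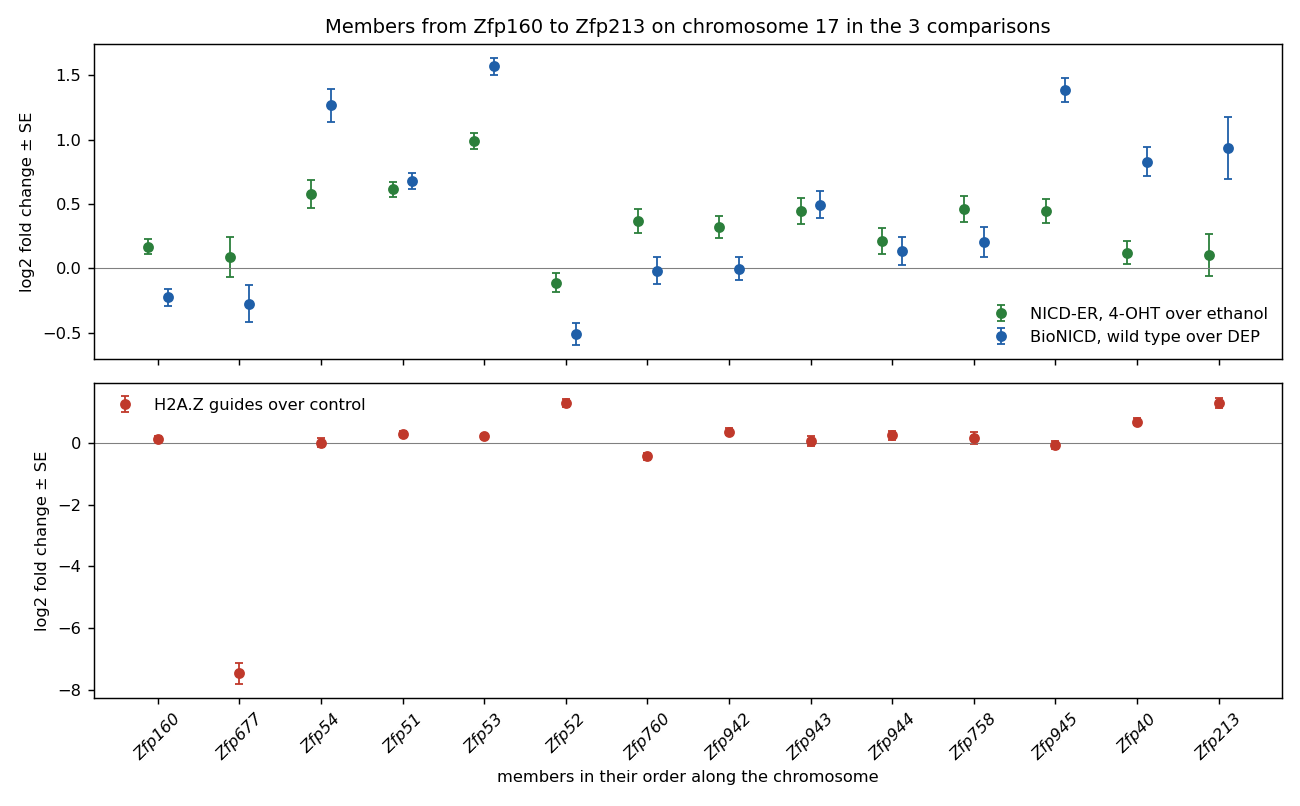
Log2 fold change ± SE (vertical axes) of the 14 members from Zfp160 to Zfp213 in their order on chromosome 17 (horizontal axis, not to scale), with the 2 NICD comparisons in the upper panel and the H2A.Z guides in the lower one. Zfp53 is highest in both NICD comparisons, at 0.99 and 1.57, and Zfp677 is lowest with the guides, at -7.47.

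The effects of NICD-ER and BioNICD share no control samples, and their difference was tested in 1 model. It was called in 107 members (43.5%), against 51.5% of all genes, with the NICD-ER effect above the BioNICD effect in 60 members and under it in 47. Zfp53 rose more with BioNICD (difference -0.58 ± 0.09, adjusted p = 8.52e-06), as did Zfp54 (-0.69 ± 0.17). For Zfp51 no difference was called (-0.07 ± 0.09). Zfp607 rose more with NICD-ER (difference 0.70 ± 0.13, adjusted p = 6.8e-05), and Zfp775 fell with NICD-ER (-0.33 ± 0.10) where it rose with BioNICD (1.33 ± 0.10), although the fall was not called by DESeq2 or without either 4-OHT replicate or ethanol replicate 1. Of the 43 members higher with NICD-ER, 19 (44.2%) were among the 71 higher with BioNICD (26.8% of these), and 9 were lower there. Of the 22 lower with NICD-ER, 9 (40.9%) were among the 65 lower with BioNICD (13.85% of these), and 4 were higher there. Among all members 28.9% were higher and 26.4% lower with BioNICD. The same overlap was not counted over all genes, so these shares have no background to be judged by.

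Across the 6 groups, Zfp382 was at 44.1 to 46.4 CPM with DEP and 40.4 to 58.2 in the CRISPR controls. The guide samples stood at 24.3 to 33.1 CPM, the wild type at 24.6 and 24.7, ethanol at 25.8 and 26.4 and 4-OHT at 25.3 and 25.6. The guide samples overlapped with the wild type, ethanol and 4-OHT, and 4-OHT against ethanol was not called (-0.03 ± 0.06). Zfp287 was lowest in the CRISPR controls and BioNICD DEP, between 0.211 and 1.13 CPM, intermediate in the NICD-ER and guide samples at 2.02 to 3.52, and highest in the wild type. Zfp532 fell among the NICD groups in the order DEP, wild type, ethanol and 4-OHT, and the samples of neighbouring groups in that order did not overlap.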

How the data were processed

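RNA-seq gene counts of 20 samples in 6 groups were analysed. The deposited values are raw counts per gene, made per the file headers with featureCounts 1.5.0 over exons of an mm9 gene annotation with no strand option given, so that overlapping and antisense genes cannot be told apart; the submitters' processing notes also name FastQC, Trimmomatic, STAR and DESeq2. Total counts ran from 10704131 to 48238324 per sample, and the precision of low genes is limited by counting error.

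Groups came from the titles. For 6 of the 8 CRISPR samples of replicates 3 to 6 title and description disagree on the group; the plasmid listed for them is that of the title. The descriptions of both NICD-ER samples titled replicate 2 call them replicate 1, so whether these are separate replicates rests on the titles. Replicate pairs all differed by more than sampling noise (smallest mean chi-square per gene 2.66), so each was counted. Within set 2 the pairs were uneven. Guide replicates 3 and 4 differed by 2.75 and 5 and 6 by 3.23, but 3 and 5 by 48.7. Control replicates 3 and 5 differed by 2.99, but 3 and 6 by 33.95. Guide replicates 5 and 6 and control replicate 6 were the samples highest in ribosomal precursor reads. The model held no term for this division. Among the NICD pairs, the ethanol samples differed by 19.89, against 4.26 with 4-OHT, 3.20 with DEP and 2.66 in the wild type. Lars2 was at 90.6 CPM in ethanol replicate 1, 2777 in ethanol replicate 2, and 2177 and 2932 with 4-OHT. The NICD-ER calls used a spread estimated over all NICD samples together. A fit on only the 4 NICD-ER samples gave 42 members higher and 26 lower.

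Counts were tested with edgeR 4.0.16 in R 4.3.3 (quasi-likelihood test, TMM scaling, filterByExpr, Benjamini-Hochberg adjustment over all genes tested, calls at adjusted p under 0.05). The guide comparison was fitted on 12 CRISPR samples, with a covariate for submission set (10662 genes, biological coefficient of variation 7.947%), and the NICD comparisons the 8 NICD samples (12499 genes, 3.584%). All 246 members passed the filter. The SE is the log2 fold change over the root of F. The procedure was tested on simulated data. Alternatives used DESeq2 1.42.0, other scalings, filters and sample sets, and leaving out each replicate.

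The members and lists were chosen with earlier results of these data known. Members were named by rule: up to 12 higher and 12 lower per comparison by size of change among called members whose groups did not overlap, the members with listed roles, the 8 highest per length, the 10 with the largest ratio between group means, and those at the threshold. Other members were named after their values were seen. The KRAB and C2H2 patterns were searched in translated GENCODE M21 coding sequences in place of the RefSeq proteins first planned. Promoters came from RefSeq (GRCm38.p6) by gene symbol.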

Additional observations from a re-analysis of the deposited data

Results flagged for a closer look

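The 87 named members were searched in both CRISPR groups, 174 groups of 6 samples in all. In 11 members 1 guide sample stood far from the other 5 by the gap between it and its nearest neighbour, and 0 control samples did; chance flags about 1 group in 20. Guide replicates 1 and 2 come from submission set 1 and the other 4 from set 2, and 9 of the 11 samples were replicate 1 or 2. Guide replicate 1 was the lowest for Zfp51 (21.05 CPM), Zfp60 (13.4 CPM), Zfp326 (14.8 CPM) and Zfp951 (6.44 CPM), and the highest for Zfp319 (25.4 CPM) and Zfp598 (126.4 CPM). Guide replicate 2 was the lowest for Zfp41 (7.51 CPM) and the highest for Zfp91 (383.3 CPM) and Zfp292 (222.9 CPM). Guide replicate 6 was the highest for Zfp532 (0.720 CPM), and guide replicate 5 held the single count of Zfp677 (0.0805 CPM). Guide replicate 1 is also 1 of the 2 libraries with fibroblast markers, whose part in these values was not tested.

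The effect of the guides differed between submission sets in 15 members by edgeR's interaction test. The log2 effect in set 2 exceeded that in set 1 by 1.57 for Zfp532, 0.85 for Zfp825 and 0.44 for Zfp512. It was under that in set 1, with differences of -0.66 for Zfp382, -0.63 for Zfp329, -0.49 for Zfp956, -0.47 for Zfp292, -0.47 for Zfp553, -0.46 for Zfp408, -0.42 for Zfp598, -0.42 for Zfp335, -0.42 for Zfp954, -0.41 for Zfp46, -0.40 for Zfp263 and -0.27 for Zfp740. Zfp335, a regulator of T cell development, went from a mean of 102.7 to 125.8 CPM with the guides in set 1 and from 109.2 to 100.2 in set 2. Zfp382 went from 42.2 to 32.6 CPM in set 1 and from 54.5 to 26.8 in set 2. Set 1 holds 2 samples a group, among them both libraries with fibroblast markers.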

How the results depend on the processing

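For the guide comparison, set 1 alone gave 32 members higher and 22 lower, with fewer samples, and 1563 higher and 1385 lower among all genes. For NICD-ER, the members higher numbered 10 in 1 model over all 20 samples and 26 with DESeq2. Among all genes 1137 and 1773 were higher in these fits, and 2376 in the main fit. The cause was not tested. Upper quartile scaling gave 29 higher and 30 lower members (43 and 22 with TMM), and 1970 higher and 2586 lower among all genes (2376 and 2145 with TMM); scaling by library size alone gave 34 and 25 members. With BioNICD, upper quartile scaling gave 63 higher and 78 lower members (71 and 65 with TMM), and 3705 higher and 4607 lower among all genes. The difference between submission sets was called in 3 members without the 3 samples highest in ribosomal precursor reads, with 4.15% of all genes called. It was called in 37 members without the 2 libraries with fibroblast markers, an alternative chosen after seeing the data, with 18.8% of all genes called. The cause was not tested.

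Leaving out each replicate in turn gave 84 to 109 members higher and 46 to 56 lower with the guides, 23 to 41 and 14 to 19 with NICD-ER, and 51 to 67 and 56 to 61 with BioNICD. It gave 9 to 87 members for the difference between sets, 84 to 110 for the difference of the NICD effects and 217 to 234 for any difference between groups.

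The direction reversed for Zfp53 in set 1 alone (-0.035, adjusted p = 0.885), for Zfp367 in set 1 alone (0.0069, adjusted p = 0.977) and for Zfp335 in set 2 alone (-0.12, adjusted p = 0.00388), all with the guides; the cause was not tested. Of the named members called, 28 of 54 kept the call under every alternative run with the guides, 14 of 34 with NICD-ER and 35 of 54 with BioNICD.

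The deviations of same-numbered samples were little correlated (from -0.03 to 0.16 with the guides, 0.17 with NICD-ER and 0.00 with BioNICD), so the numbers were not taken to pair samples. Single features were shared, however. Replicate 1 of the controls and of the guides held the fibroblast markers (35.0 and 42.5 CPM). Replicate 6 of both was high in ribosomal precursor reads (6.73% and 6.93% of counts), as was guide replicate 5 (7.67%). With the replicate number as a block, 84 members were higher and 47 lower with the guides, 49 and 26 with NICD-ER, and 74 and 69 with BioNICD.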
